A study of Mus musculus with 7 samples.

Results

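The TRIM family was followed here in mouse melanoma grafts. TRIM (tripartite motif) proteins are mostly E3 ubiquitin ligases, in which a RING finger that recruits a ubiquitin-conjugating enzyme is followed by B-box domains, a coiled coil and a variable end that picks the target. Many of them are induced by interferon and act in innate immunity, where they tag nucleic acid sensors and their adaptors or block viruses directly, while others regulate chromatin, muscle protein turnover, microtubules or development. The genes were taken by symbol, as every row of the deposited count table named Trim plus a number and an optional lower-case letter, with at least 10 counts summed over all libraries. Of 21878 rows, 67 carried such a name and 52 reached 10 counts. Of the 15 rows below that minimum, 7 were at 0 in every library (Trim31, Trim40, Trim42, Trim52, Trim58, Trim60 and Trim61) and the others were Trim6, Trim30b, Trim34b, Trim38, Trim43a, Trim43b, Trim55 and Trim75. Trim80 with 10 counts and Trim69 with 11 lay just inside the minimum, and Trim55 with 9 and Trim6 with 7 just outside.

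Messenger RNA was sequenced in 7 libraries from tumours grown from B16F10 melanoma cells, a pigmented mouse line, in C57BL/6J females. Controls, named NC, gave 3 libraries (NC_5, NC_6 and NC_10 in the table). The other group had 4 libraries (MBZ_9, MBZ_11, MBZ_13 and MBZ_15) from mice dosed orally with 1.25 mg/kg of Zelnorm every 2 days, starting after the tumours could be felt. Zelnorm is tegaserod, a partial agonist of the serotonin receptor 5-HT4, and the labels use MBZ for this group without explaining the letters. The sources used here do not say what control mice received, how old the mice were or whether each library is its own mouse, so p-values measure the spread between these libraries, which may be partly technical. Melanoma identity was visible in all 7 libraries, with 9 of 9 pigment cell markers detected in each and a summed level between 26024 and 30421 CPM (counts per 1000000, by TMM-adjusted library size). Some libraries stood apart: skeletal muscle markers summed to 155 CPM in MBZ_11 and 376 CPM in MBZ_15 against 23.2 to 63.2 CPM in the other 5. Library totals ran from 16903598 to 19666598 counts, so that 3 counts, used as the detection floor, equalled 0.152 to 0.178 CPM (counting error only).

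Per length of exon the family was dominated by a few genes, as the plot of levels per length shows. Trim28, the corepressor KAP1 that silences chromatin at sites bound by KRAB zinc finger proteins, stood first at 126 ± 3.95 CPM per kilobase in NC (SD, n = 3), which was 28.7% of the summed per-length level of the 52 genes. Trim35, a ligase tied to pyruvate kinase M2, followed at 52.1 ± 0.738 CPM per kilobase and Trim63 at 30 ± 1.18, a muscle ligase (MuRF1) that is taken up again below. Trim44 (23.7 ± 1.13), Trim37 (22.4 ± 0.92) and Trim59 (20.2 ± 2.07) came next, and the order of these 3 was not tested. The interferon-linked genes lay lower, from 11.8 CPM per kilobase for Trim26, 7.21 for Trim14 and 6.34 for Trim25 to 0.125 for Trim5. Exon lengths came from GENCODE and can differ from RefSeq. Trim56 has 9279 exon bases, more than its RefSeq span (chr5:137111286-137116462), so levels per length are approximate.

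**Figure D1:**
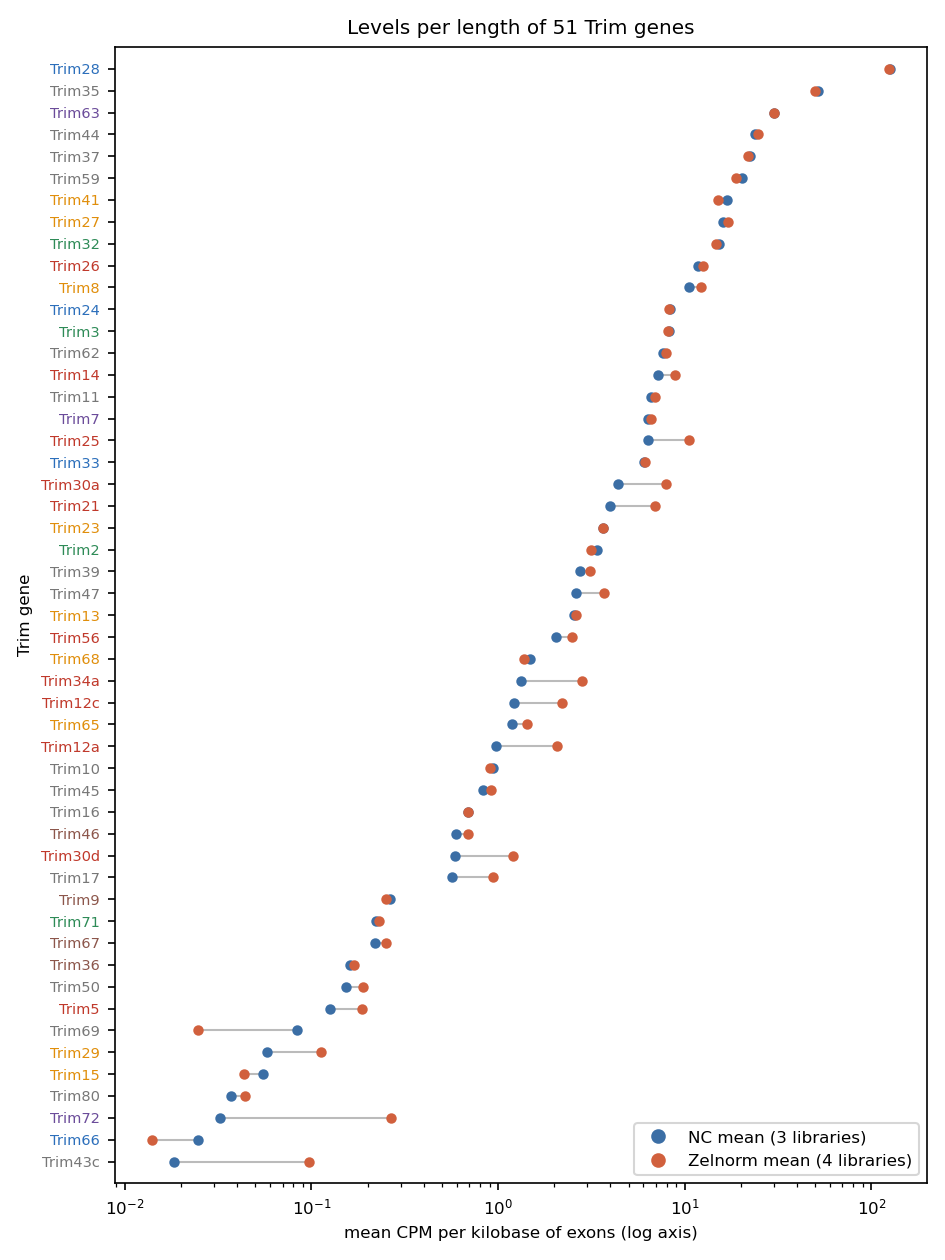
Mean level per length of 51 Trim genes in the NC group (blue, 3 libraries) and the Zelnorm group (orange, 4 libraries), in CPM per kilobase of exons on a log axis, with gene names coloured by list (red: interferon-linked, ochre: other immune signalling, dark blue: TIF1, purple: muscle, green: NHL repeat, brown: COS box, grey: none). Trim54, at 0 in NC, cannot be placed on a log axis. Trim28 stands alone at the top, and gaps between blue and orange points are widest for red names and for genes near the detection floor at the bottom.

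Sequences near the transcription starts of the interferon-linked genes are shown because a known interferon element can be looked for in them. Interferon signalling acts in part through the interferon-stimulated response element, whose core is a repeat of GAAA with a gap of 2 bases. RefSeq promoter windows of 300 bases (GRCm38.p6, 250 before and 50 after a start) were at hand for 39 of the 52 genes and were searched on both strands for GAAA, any 2 bases, GAAA. A match stood in a window of 8 of the 10 interferon-linked genes that reached 10 counts and had a window. Of all 27025 genes with a window 3.99% had a match, as had 1 of the 29 other TRIM genes (Trim2). The start used for Trim2 lay inside its annotated span, as did others, among them those of Trim5 and Trim12a. Trim6, Trim30b, Trim34b and Trim38, list genes below 10 counts and so outside the 10, showed no match in the windows at hand. For the 8 genes the first matched base lay between position -160 (Trim26) and 13 (Trim21) relative to the start. Matches follow, read 5′ to 3′ on the strand of the gene, with capitals for the match or, for Trim21 and Trim26, for a pair of overlapping matches.
Trim12a, chr7:104315466-104315495, minus strand: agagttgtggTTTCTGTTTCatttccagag
Trim5, chr7:104288136-104288165, minus strand: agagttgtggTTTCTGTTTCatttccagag
Trim12c, chr7:104353359-104353388, minus strand: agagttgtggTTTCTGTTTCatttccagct
Trim30a, chr7:104465210-104465239, minus strand: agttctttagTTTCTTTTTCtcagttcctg
Trim30d, chr7:104507871-104507900, minus strand: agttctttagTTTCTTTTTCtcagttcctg
Trim34a, chr7:104244457-104244486, plus strand: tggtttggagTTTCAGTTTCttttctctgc
Trim21, chr7:102565447-102565476, minus strand: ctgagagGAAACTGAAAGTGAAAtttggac
Trim26, chr17:36836979-36837008, plus strand: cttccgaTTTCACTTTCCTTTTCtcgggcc

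These windows are not independent of each other. The 30 bases of Trim12a and Trim5 had 0 differences and those of Trim12c had 2 against either, while Trim30a and Trim30d also had 0 differences. Trim30a had a second annotated start with a match whose window differed at 4 bases. The windows of Trim25 and Trim56 held no match, and Trim14 had no window. A second motif was searched too, TTC and GAA with any 3 bases between them. It stood in a window of 0 of the 10 interferon-linked genes and 3 of the 29 others, against 9.55% of all genes. Trim38, a list gene below 10 counts, had a match to it. Most genes of the interferon-linked list were chosen for known interferon induction, so their share of matches to the GAAA repeat is no independent evidence. A match is a description of letters and not a measured binding site.

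The comparison of the groups asks how the graft's transcripts differ after Zelnorm, which the series title ties to the immune microenvironment. The filter on low counts kept 43 of the 52 TRIM genes. Of these, 0 rose and 0 fell in edgeR's quasi-likelihood test at an adjusted p under 0.05, where 0.0308% of all 12997 genes tested rose and 0% fell. The number of genes called in either direction over the whole table depended on single libraries: it was 4 with all libraries, 161 without NC_10 (0 of them TRIM genes), 21 without MBZ_15 and 0 without NC_5. At an unadjusted p under 0.05, 12 were higher in the Zelnorm tumours (6.94% of all genes tested) and 1 was lower (3.38%). Every Zelnorm library lay above every NC library for 10 of the 43 genes (5.33% of all genes tested) and below for 1 (4.27%). DESeq2, an alternative, called 7 TRIM genes higher and 0 lower at the same threshold (1.4% and 0.289% of 12472 genes with an adjusted p). The median log2 fold change was 0.06 for the 43 genes and 0.00 for all genes tested, and 30 of the 43 lay within 0.25 of 0.

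**Figure D2:**
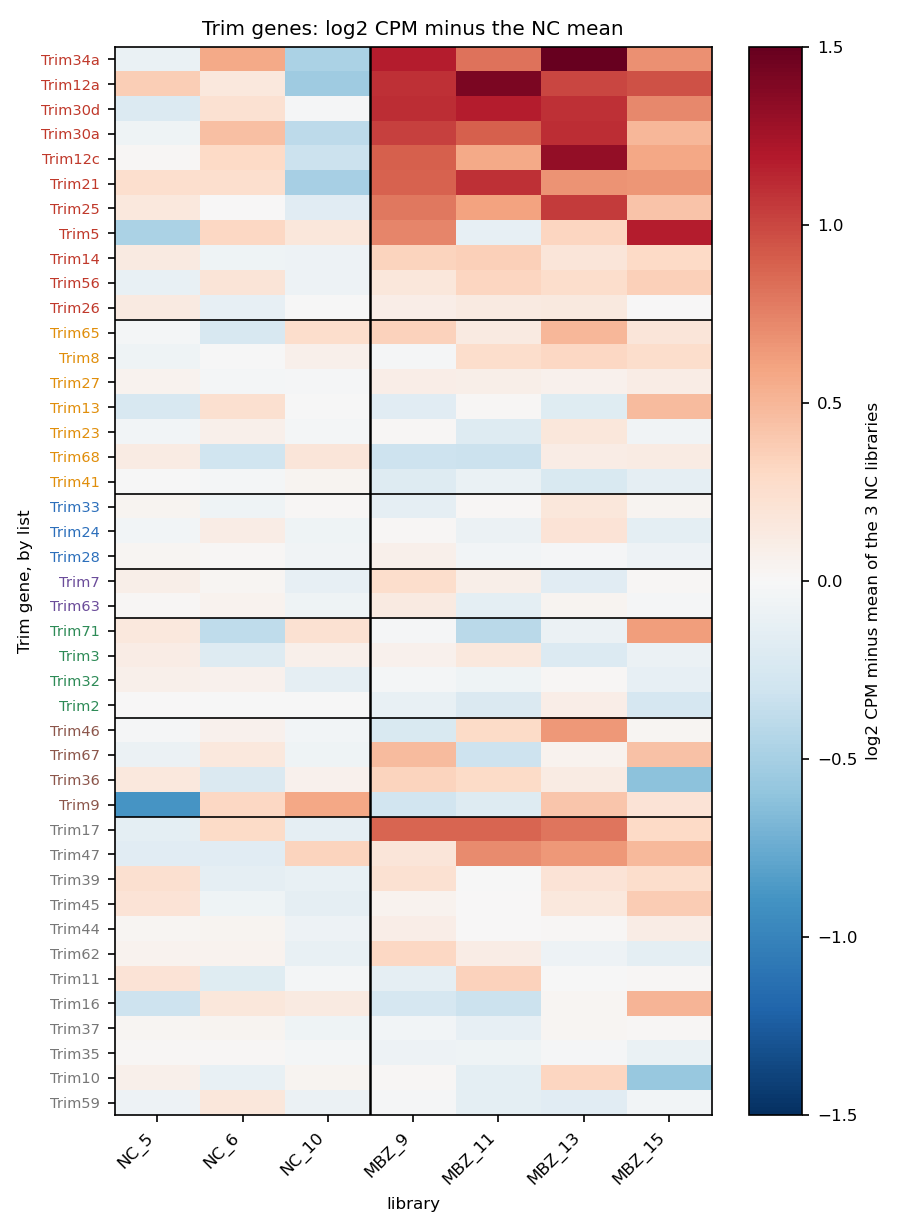
Log2 CPM minus the mean of the 3 NC libraries for the 43 tested Trim genes (rows, grouped by list in the order interferon-linked, other immune signalling, TIF1, muscle, NHL repeat, COS box, none) in each library (columns, NC left of the vertical line). The red block is in the top rows of the 4 Zelnorm columns, and the rows below it are pale apart from Trim17, Trim47 and a few low genes.

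Of the 12 genes higher at an unadjusted p under 0.05, 9 were interferon-linked. That list holds 16 genes known to be induced by interferon or to act in antiviral defence. Of these 15 are rows of the table, 11 reached 10 counts, and all 11 of those were tested. The fold change was above 0 in 11 of 11, with a median of 0.80 on the log2 scale. Of the 11, 9 were higher at an unadjusted p under 0.05 (6.94% of all genes tested). For 8 the Zelnorm libraries lay above all controls (5.33% of all genes tested). For the 32 other tested TRIM genes the median was 0.04, with an unadjusted p under 0.05 for 3 higher genes and 1 lower gene. These 2 counts were near the shares over all genes tested (6.94% higher and 3.38% lower). More cells of a type and more RNA per cell cannot be told apart in these bulk samples. Most genes of this list were chosen for known interferon induction, and the interferon response of these libraries was known when it was drawn up, so the count is no independent evidence of direction.

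**Figure D3:**
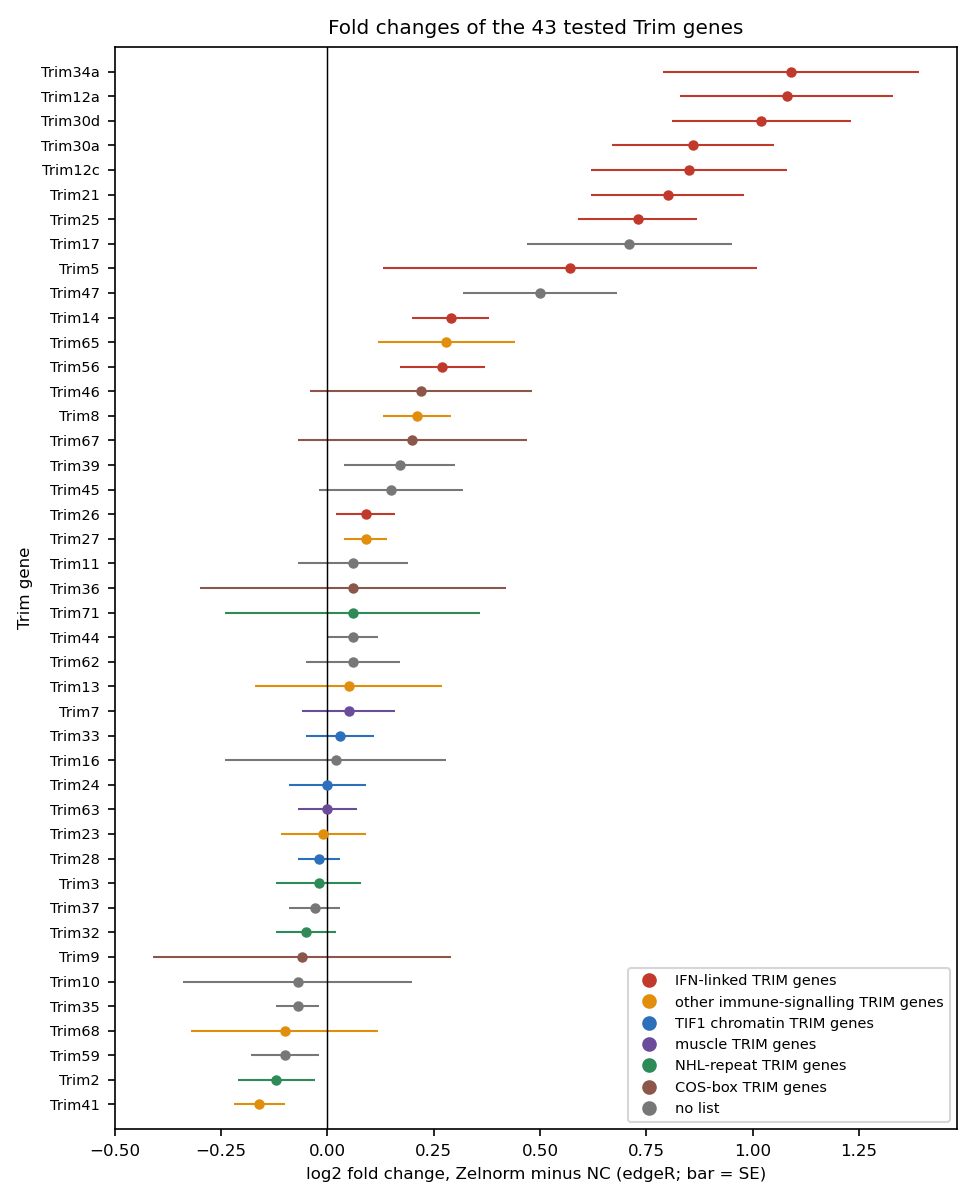
Log2 fold change of each tested Trim gene (Zelnorm minus NC, edgeR), with bars for the SE and colours for the list. The 7 genes at the top, from Trim34a at 1.09 to Trim25 at 0.73, are all interferon-linked, and most others lie near 0.

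Trim25, the ligase that attaches ubiquitin to the RNA sensor RIG-I, had the smallest p of the family. Its level was 40.7, 36.5 and 32.3 CPM in NC_5, NC_6 and NC_10, and 63.1, 55.0, 75.4 and 48.7 CPM in MBZ_9, MBZ_11, MBZ_13 and MBZ_15. The groups did not overlap, and the lowest Zelnorm library still lay above the highest control. The means were 36.5 ± 4.23 CPM (SD, n = 3) and 60.5 ± 11.5 CPM (SD, n = 4), so the log2 fold change was 0.73 with an SE of 0.14 (edgeR adjusted p = 0.115; values after ± beside later log2 fold changes are SE and beside means SD). Without MBZ_15, the lowest Zelnorm library for this gene, the fold change was 0.82 and the edgeR adjusted p was 0.0413, and with no filter on low counts it was 0.72 with an edgeR adjusted p of 0.0477 (21 and 34 genes of the whole table were called in these fits). Over its 13 alternatives, all with Zelnorm higher, the adjusted p ran from 8.78e-05 in DESeq2 to 0.274 in edgeR without MBZ_9. Trim25 lies at chr11:88999403-89020294 (GRCm38.p6), away from the cluster described next.

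A cluster of TRIM genes on chromosome 7 held most of the others. Between Trim6 and Trim30d (104218795 to 104507853, 289 kilobases) the table has 9 TRIM rows and 1 other gene, which was too low to test. In chromosome order, Trim6 had 0 to 2 counts a library, then came Trim34a, Trim5, Trim12a, Trim34b with 0 to 2 counts, Trim12c, Trim30b with 0 to 1 count, Trim30a and Trim30d. All 6 tested genes of the cluster had a fold change above 0, as had 6518 of all 12997 genes tested. Their median was 0.94, against 0.00 for all genes tested. For 5 of the 6 the Zelnorm libraries lay above all controls, where 5.33% of all genes tested did so. All 6 are on the interferon-linked list and are already in its counts.

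Trim30a, which restrains Toll-like receptor signalling in mouse macrophages, was the most abundant of them. It measured 15.3, 21.9 and 12.2 CPM in NC (libraries in the order given above) and 32.6, 29.7, 34.5 and 22.6 CPM after Zelnorm. The gap between groups was narrow, from NC_6 at 21.9 to MBZ_15 at 22.6, and the log2 fold change of 0.86 ± 0.19 (edgeR adjusted p = 0.152) was 0.68 without NC_10 and 1.11 without NC_6. Its neighbour Trim30d had 1.90, 2.56 and 2.17 CPM in NC and 4.72, 4.97, 4.67 and 3.61 CPM in Zelnorm tumours. Here the spread within groups was small and the log2 fold change was 1.02 ± 0.21 (edgeR adjusted p = 0.152).

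Trim12a and Trim12c are mouse relatives of the retroviral restriction factor TRIM5. Trim12a stood at 2.65, 2.28 and 1.42 CPM in NC and at 4.37, 5.45, 4.11 and 3.96 CPM after Zelnorm, a log2 fold change of 1.08 ± 0.25 (edgeR adjusted p = 0.163). For Trim12c the values were 4.55, 5.51 and 3.59 CPM against 8.34, 6.63, 11.2 and 6.70 CPM (0.85 ± 0.23 on the log2 scale, edgeR adjusted p = 0.215). Both separated the groups, with NC_10 the lowest control in each. Trim34a, another relative, had the highest fold change of the family, 1.09 ± 0.30 (edgeR adjusted p = 0.234), from 3.09, 4.90 and 2.38 CPM to 7.48, 5.80, 10.7 and 5.33 CPM. MBZ_13 was the highest library for Trim34a and Trim12c, and without it their fold changes were 0.85 and 0.67.

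Trim5 itself was sparse and its groups overlapped. It had 0.325, 0.557 and 0.506 CPM in NC and 0.748, 0.415, 0.563 and 1.02 CPM in Zelnorm libraries, from 6 to 20 counts each (log2 fold change 0.57 ± 0.44, edgeR adjusted p = 0.718). Sequence shared between copies makes counts of this cluster uncertain to differing degrees, most for Trim34a, Trim5 and Trim12c among the tested genes. Of all 50-base words in the annotated transcripts, 39.8% of those of Trim34a occur in Trim34b too, 24.2% of those of Trim12c and 5.04% of those of Trim12a occur in Trim5, and 5.98% of those of Trim30a occur in Trim30d. With copies added together before the fit, the log2 fold changes were 0.93 ± 0.18 for Trim12a plus Trim12c, 0.88 ± 0.18 for Trim30a, Trim30b and Trim30d, and 1.08 ± 0.30 for Trim34a plus Trim34b (edgeR adjusted p = 0.112, 0.147 and 0.241). Trim5 was left out of these sums, so they do not cover the words it shares with Trim12a and Trim12c. Of the words of Trim5, 36.3% occur in transcripts of another gene.

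**Figure D4:**
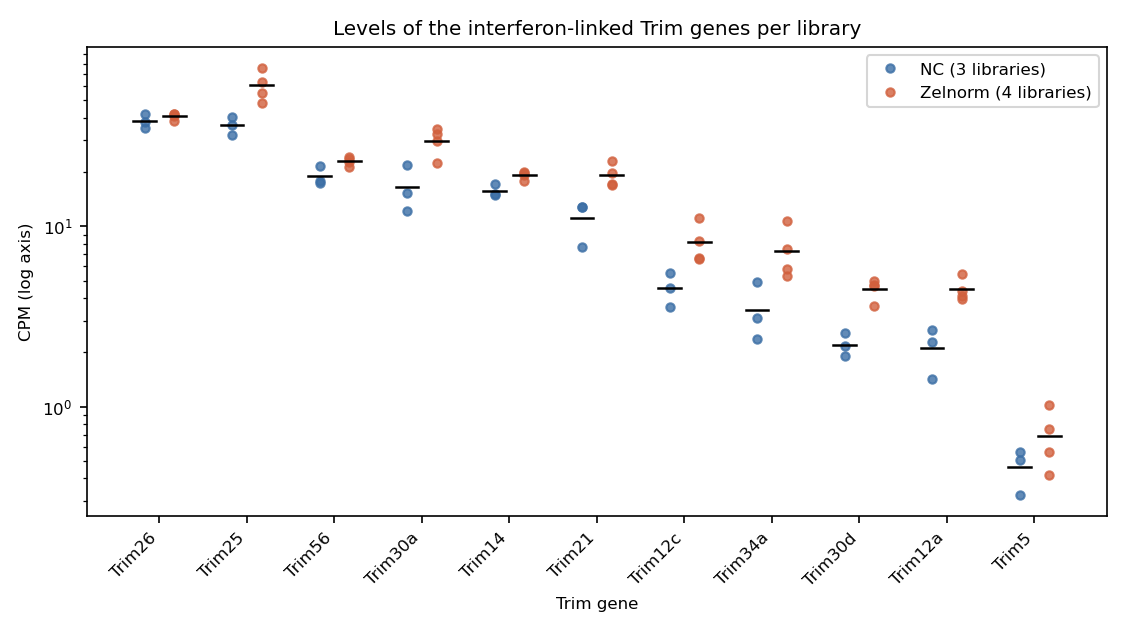
CPM per library (log axis) of the 11 interferon-linked Trim genes, NC in blue and Zelnorm in orange, with a black line at the mean of each group. The orange points lie above all blue points for 8 genes, and the groups overlap for Trim26, Trim56 and Trim5.

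Trim21, also on chromosome 7 but outside the cluster (chr7:102557920-102565482), encodes a cytosolic antibody receptor that directs antibody-coated virus to the proteasome. Its level was 12.8, 12.8 and 7.64 CPM in NC and 19.9, 23.0, 17.2 and 17 CPM in Zelnorm tumours. NC_10 was low among the controls, and the log2 fold change of 0.80 ± 0.18 (edgeR adjusted p = 0.152) was 0.59 without it. Trim14, a member without a RING finger that works as an adaptor in mitochondrial antiviral signalling, separated the groups by a smaller step. It measured 17.3, 15.1 and 14.9 CPM in NC and 19.8, 20.1, 17.8 and 19.4 CPM after Zelnorm, or 0.29 ± 0.09 on the log2 scale (edgeR adjusted p = 0.300).

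Groups overlapped for the remaining genes of the list. Trim56, an antiviral ligase linked to the STING pathway, had 17.5, 21.7 and 17.9 CPM in NC and 21.3, 23.6, 22.8 and 24.2 CPM in Zelnorm tumours, with NC_6 inside the Zelnorm range (0.27 ± 0.10, edgeR adjusted p = 0.352). Trim26, whose promoter window holds a pair of motif matches, had 41.9, 35.1 and 38.1 CPM in NC and 41.1, 41.9, 42.2 and 38.5 CPM in Zelnorm tumours, a log2 fold change of 0.09 ± 0.07 with overlapping groups.

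Partners of these ligases were taken from lists of known pathway genes. Of 12 tested genes for RNA sensing and for conjugation of ISG15, a ubiquitin-like protein, the fold change was above 0 in 12 and 10 were at an unadjusted p under 0.05 (0 at an adjusted p under 0.05, median 0.72 against 0.00 for all genes tested). Isg15 went from 13.6 ± 4.49 to 27.8 ± 5.88 CPM (1.04 ± 0.22 on the log2 scale), Uba7, its activating enzyme, from 14.8 ± 4.16 to 26.2 ± 3.97 CPM, and Ddx58, which encodes RIG-I itself, from 47.9 ± 14.6 to 80.0 ± 17.3 CPM. NC_10 was the lowest control for all 3, at 8.65 CPM against 17.4 and 14.6 CPM for Isg15 and at 31 CPM against 55.7 and 56.9 CPM for Ddx58. A fit without NC_10 was added after seeing the data. In it the median of the 12 genes was 0.47, and 8 were higher at an unadjusted p under 0.05. Of all genes tested, 8.37% were higher at that threshold without NC_10 and 6.94% with all libraries. The log2 fold changes of Isg15, Uba7 and Ddx58 without NC_10 were 0.80, 0.60 and 0.51 in place of 1.04, 0.82 and 0.74. Mavs, the adaptor below RIG-I, measured 49.5 ± 1.82 and 51.1 ± 7.59 CPM (it was picked after its values were seen). The 10 ubiquitin-conjugating enzymes that serve TRIM ligases had a median of -0.04, with 0 at an unadjusted p under 0.05. Among 4 tested TRIM genes with other names, Mefv, which encodes pyrin, was at 0.408 ± 0.0411 and 0.871 ± 0.388 CPM, while Pml was at 75.9 ± 9.93 and 89.9 ± 12.3 CPM (edgeR adjusted p = 0.452 and 0.512).

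Leukocyte transcripts moved in the same direction as the interferon-linked genes. All 12 leukocyte markers were detected in every library, 12 of 12 had a fold change above 0, and their summed level ran from 151 to 292 CPM in NC and from 266 to 411 CPM in Zelnorm libraries. The summed level of the 11 interferon-linked genes was 158, 159 and 133 CPM in NC and 224, 217, 241 and 191 CPM in Zelnorm tumours. The libraries did not rank alike on both measures: NC_10 had the most leukocyte transcripts of the controls and the lowest interferon-linked sum, and MBZ_13 had the fewest of the Zelnorm libraries and the highest sum. The part of leukocytes in the TRIM differences was not tested.

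**Figure D5:**
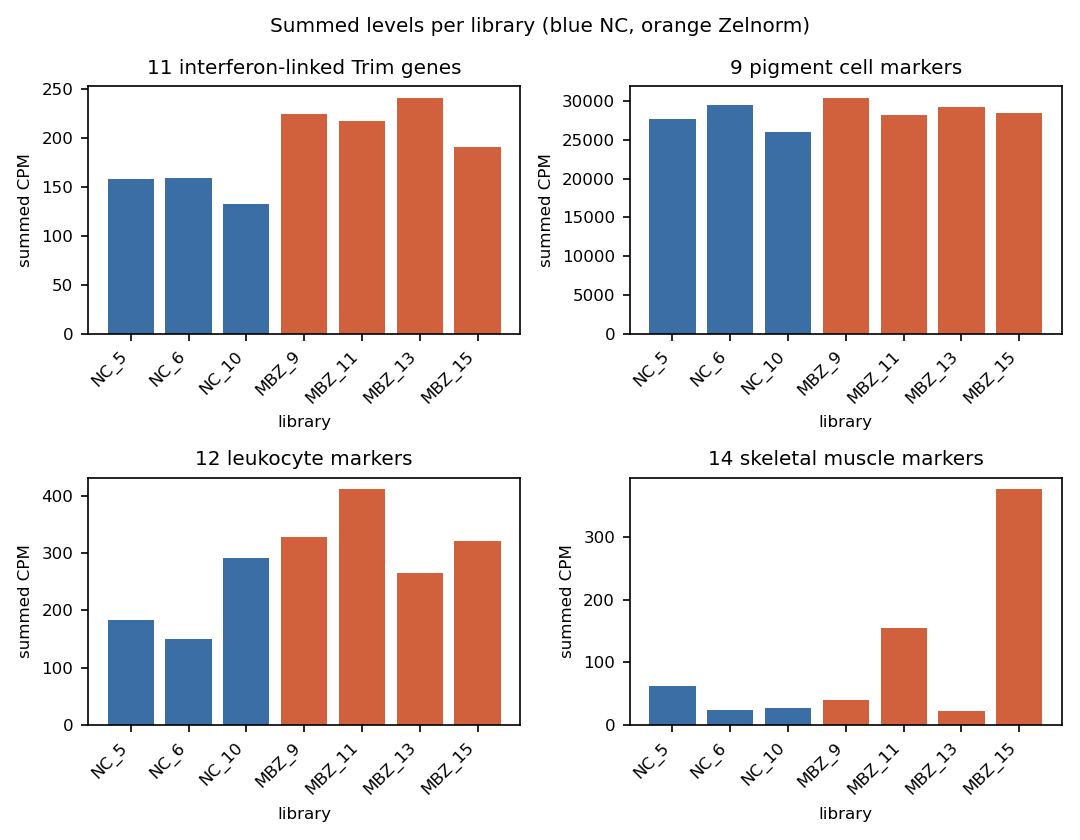
Summed CPM per library (bars from 0, NC blue, Zelnorm orange) for 11 interferon-linked Trim genes, 9 pigment cell markers, 12 leukocyte markers and 14 skeletal muscle markers. The groups are apart for the interferon-linked genes, overlap on the pigment and leukocyte panels, and MBZ_15 at 376 CPM and MBZ_11 at 155 CPM stand out on the muscle panel.

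Other TRIM genes of immune signalling were mixed. Of 11 on that list 7 were tested, with a median log2 fold change of 0.05. At an unadjusted p under 0.05 there was 1 higher gene and 1 lower (6.94% and 3.38% of all genes tested). Trim41, a ligase for protein kinase C, had all Zelnorm libraries below all controls, at 57.4, 56.5 and 59.7 CPM in NC and 50.8, 54.1, 49.5 and 52.6 CPM in Zelnorm tumours (-0.16 ± 0.06, edgeR adjusted p = 0.374). Trim8, which targets the cytokine inhibitor SOCS1, was at 36.0, 37.6 and 39.6 CPM and at 37.3, 45.1, 46.7 and 45.2 CPM, so MBZ_9 lay among the controls (0.21 ± 0.08, edgeR adjusted p = 0.438). Trim27 measured 70.0 ± 2.02 CPM in NC and 74.4 ± 0.874 CPM in Zelnorm tumours without overlap (5.33% of all genes tested were higher without overlap). Its log2 fold change was 0.09 ± 0.05 (edgeR adjusted p = 0.616). Trim65, which acts on the RNA sensor MDA5, had 6.83 ± 1.22 and 8.29 ± 0.956 CPM with overlap (edgeR adjusted p = 0.596).

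The chromatin group stayed close to 0. Trim28 measured 417, 415 and 394 CPM in NC and 429, 398, 403 and 387 CPM in Zelnorm tumours (-0.02 ± 0.05 on the log2 scale). Trim24, a corepressor of nuclear receptors, had 34.4, 38.3 and 33.9 CPM against 35.8, 33.3, 40.9 and 32.1 CPM (0.00 ± 0.09). Trim33, which acts on SMAD4, had 54.9, 51.3 and 54.2 CPM against 48.7, 54.2, 60.3 and 54.9 CPM (0.03 ± 0.08). Groups overlapped in all 3, and the fourth gene, Trim66, had 0 to 7 counts a library and was not tested. Among 13 tested partners of Trim28 in silencing the median was 0.01. Zfp57, a KRAB zinc finger protein of imprinted loci, was the only one of them at an unadjusted p under 0.05, at 3.42 ± 0.621 CPM in NC and 2.26 ± 0.433 CPM in Zelnorm tumours (-0.60 ± 0.24, edgeR adjusted p = 0.433).

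Genes of the muscle group fell into 2 kinds. Trim63 had 57, 58.5 and 54.1 CPM in NC and 62.1, 50.9, 57.9 and 56.0 CPM in Zelnorm tumours, a log2 fold change of 0.00 ± 0.07, and Trim7, which binds glycogenin, had 19.9, 19.1 and 17.2 CPM and 22.4, 19.9, 16.6 and 18.9 CPM (0.05 ± 0.11), with overlap in both. Trim54 (MuRF3) and Trim72 (MG53, a membrane repair protein) were sparse and uneven instead. Trim54 had 0 counts in all 3 NC libraries, in MBZ_9 and in MBZ_13, 8 counts in MBZ_11 and 18 in MBZ_15. Trim72 had 4, 0 and 0 counts in NC and 2, 8, 3 and 32 in Zelnorm libraries. Summed skeletal muscle markers ran from 23.6 to 63.2 CPM in NC and from 23.2 to 376 CPM in Zelnorm libraries, with 9 of 14 detected everywhere and Tnnt3, Myh1, Myh4, Pvalb and Mb at 0 in some. MBZ_15 and MBZ_11, the libraries with the most muscle transcripts, were those with the most Trim54 and Trim72. Trim63 did not follow them, as MBZ_15 at 56.0 CPM lay within the control range and MBZ_11 at 50.9 CPM was the lowest of all.

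The remaining groups gave small differences. All 4 NHL-repeat genes (Trim2, Trim3, Trim32 and Trim71) and all 4 COS-box genes (Trim9, Trim36, Trim46 and Trim67, which bind microtubules) overlapped between groups, with medians of -0.03 and 0.13 and 0 at an unadjusted p under 0.05. Of 12 tested genes outside the lists, 2 were higher at an unadjusted p under 0.05 (6.94% of all genes tested). Trim17, a ligase studied in neuronal death, was at 1.90, 2.56 and 1.92 CPM in NC and at 3.85, 3.85, 3.66 and 2.59 CPM in Zelnorm tumours (0.71 ± 0.24, edgeR adjusted p = 0.339). The groups were apart by only 2.56 in NC_6 to 2.59 in MBZ_15, and 17.7% of the 50-base words of Trim17 occur in a histone gene inside its span, so its count is uncertain. Trim47 had 5.04, 5.07 and 7.18 CPM against 6.44, 9.30, 8.89 and 7.97 CPM (0.50 ± 0.18, edgeR adjusted p = 0.390), and NC_10 lay above MBZ_9. The 9 genes that were not tested (Trim15, Trim29, Trim43c, Trim50, Trim54, Trim66, Trim69, Trim72 and Trim80) had at most 32 counts in any library.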

How the data were processed

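Raw read counts per gene were deposited by the authors in 1 table. HTSeq, HISAT2, Trimmomatic, Cufflinks and DESeq are named, with GRCm38 and GRCh38 as builds and no versions or order, per the submitters' processing notes, and per the labels' protocols the library kit kept strand. The strand setting and annotation used in counting were not given in the sources used here. Columns name groups only, so each column went to its group. The members and lists were chosen with earlier results of these data known. The 12997 genes kept by filterByExpr were scaled by TMM (factors 0.986 to 1.01) and compared with edgeR 4.0.16 (quasi-likelihood, Benjamini-Hochberg over all genes, R 4.3.3), which was tested on simulated data. No pair of libraries agreed within sampling noise (chi-square per degree of freedom at least 6.53). Alternatives were RLE scaling, no filter, DESeq2 1.42.0, limma 3.58.1 (voom), summed paralogues and each library left out. Values per library were given for the interferon-linked, TIF1 and muscle lists and for the 10 tested genes with the smallest p, and Trim41, Trim47, Trim8 and Zfp57 were among up to 4 examples per list. Coordinates and promoters are from RefSeq GRCm38.p6 (67 of 67 rows matched by identifier) and exon lengths and transcripts from GENCODE M21. Figures used matplotlib 3.10.9.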

Additional observations from a re-analysis of the deposited data

Results flagged for a closer look

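In the 4 Zelnorm libraries, 2 of the 52 TRIM genes had a library far from the others by Dixon's ratio of gap to range, which chance gives in about 1 of 20 groups. Trim17 was low in MBZ_15, at 2.59 CPM against 3.66 to 3.85 CPM in the other Zelnorm libraries. Trim8 was low in MBZ_9, at 37.3 CPM against 45.1 to 46.7 CPM.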

How the results depend on the processing

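The number of TRIM genes called higher at an adjusted p under 0.05 was 0 in edgeR, 7 with DESeq2 (Trim25, Trim30a, Trim21, Trim30d, Trim12a, Trim34a and Trim12c) and 1 with no filter on low counts (Trim25), and 0 to 1 over the 7 fits that leave out a library, where the call was Trim25 without MBZ_15. The adjusted p of Trim25 ran from 8.78e-05 with DESeq2 to 0.274 without MBZ_9. The number lower at an unadjusted p under 0.05 was 0 to 1 with a library left out (0 without NC_10, where 2.72% of all genes tested were lower). Groups not overlapping with Zelnorm lower were counted for 2 genes under RLE scaling and for 1 to 3 with a library left out (3 without NC_10 or MBZ_13). With all libraries 4.27% of all genes tested were lower without overlap, against 8.08% without NC_10 and 6.56% without MBZ_13. The 3 TRIM genes were 6.98% of the 43, so that count was near the share over all genes. Without NC_5, MBZ_11 and MBZ_15, the libraries with the most muscle transcripts, an alternative chosen after seeing the data, 16 genes were higher and 3 lower without overlap (17% and 15.4% of all genes in that fit, since fewer libraries overlap less by construction), 8 were higher at an unadjusted p under 0.05 (2.83% of all genes), 0 were called by edgeR and the interferon-linked median was 0.97. That median lay between 0.65 and 0.91 with a library left out. With a library left out, direction changed in at least 1 fit for 15 of the 43 tested genes, each within 0.07 of 0 with all libraries, and values ran from -0.38 to 0.23. Among the 17 genes named by rule these were Trim63 (-0.00 under RLE, no filter and DESeq2, and -0.05 to 0.05 with a library left out), Trim7 (-0.03 to 0.12), Trim24 (-0.08 to 0.04), Trim28 (-0.05 to 0.00) and Trim33 (-0.02 to 0.07), with Trim24 at 0.08 and Trim28 at 0.04 without the muscle-rich libraries. The cause was not tested. Counts of groups that do not overlap were not recomputed for DESeq2 and limma voom. No paired analysis was possible because column names hold numbers that match no title's replicate, and that planned block was not run. Depth limits the genes under about 10 counts a library.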
